A study of Pimephales promelas with 12 samples.

Results

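Liver and hypothalamus of adult male fathead minnows (Pimephales promelas), a small North American fish used in aquatic toxicity testing, were compared through 6 RNA-seq libraries, 3 of liver and 3 of hypothalamus. They are 6 of the 12 libraries of a survey of baseline expression that also sampled gut and telencephalon. The count lists held 46309 contigs, and the 42878 that passed a filter on detection were tested. The fish came from an in-house culture, no treatment is described beyond sacrifice by submersion in buffered MS-222, and all 4 groups share sex, life stage and source. The methods name 3 individual males as the source of the 4 tissues, the labels number the libraries 1 to 3 in each tissue, and neither strain nor age in days is given. Each library therefore stands for 1 tissue of 1 fish. The main tests treated libraries as independent, so their p-values rest on the spread among the 3 libraries of each tissue.

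The liver makes most of the plasma proteins, packages lipid into lipoproteins, synthesizes bile acids and detoxifies foreign compounds, and its cells are largely of a single type, the hepatocyte. In egg-laying vertebrates it also makes vitellogenin, the egg yolk precursor, in response to estrogen, which is why male fish liver is widely used to detect estrogenic contaminants. The hypothalamus is the part of the forebrain that links the nervous and endocrine systems. It holds many kinds of neurons and glia, and in teleost fish its neurons send axons directly into the pituitary. Contigs, the assembled sequences that stand for transcripts or parts of them, carry no gene names here. Of the names, 11230 hold the identifier of a public sequence record, and 0 of them matched the 64593 genes of the RefSeq gene table for this species. That table was searched by identifiers of genes, transcripts and proteins, not of such records, so the search could not have named them. Markers of hepatocytes, neurons, glia, blood or pituitary could thus not be looked up and the labelled tissues could not be checked against them, and contig sequences were not used here. The tissues are described below by contigs, by the kinds and lengths of contigs, and by the gut and telencephalon of the same fish.

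The liver libraries held 15752594, 16721570 and 14546298 counts, and those of the hypothalamus 20950303, 22589095 and 18845704 counts. At this depth a contig absent from a library could be present at up to 3 counts, or 0.264 to 0.274 CPM in liver (CPM is a count scaled to a common library total, by TMM as described below) and 0.0928 to 0.109 CPM in hypothalamus. Liver libraries correlated with each other at a mean Pearson r of 0.945 (0.939 to 0.956) and hypothalamus libraries at 0.94 (0.928 to 0.954), against 0.665 between liver and hypothalamus of the same number and 0.65 between those of different numbers, across contigs on the log2(CPM + 1) scale. Every library was more like each of the others of its own tissue than like any of the other tissue.

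Liver counts were spread over fewer contigs than hypothalamus counts in every library. A count was found for 35680, 36005 and 35656 contigs in the liver libraries, against 40462, 38922 and 40284 in the hypothalamus libraries (35780 ± 194.9 against 39889 ± 842.4, SD, n = 3 each), and the groups did not overlap. Of the 44696 contigs with a count in any of the 6 libraries, 39396 had one in both tissues, 1066 in liver alone and 4234 in hypothalamus alone, at unequal depths. The 10 highest contigs of each library held 18.6%, 20.8% and 20.6% of the counts in liver, against 8.56%, 11.1% and 8.53% in hypothalamus. The 100 highest held 46.3%, 47.2% and 45.5% in liver, against 17.5%, 21.9% and 17.6% in hypothalamus. Every liver library exceeded every hypothalamus library by a wide margin on both measures. The number of contigs that together held 50% of a library's counts was 136, 128 and 149 in liver, against 1662, 1172 and 1578 in hypothalamus. For each of these measures the exact two-sided permutation test gave p = 0.1, the smallest value that 3 unpaired libraries against 3 can give. The test did not use the pairing of libraries by replicate number. The second hypothalamus library had the fewest contigs and the highest shares of its group, and it remained far from the liver libraries on each measure.

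**Figure D1:**
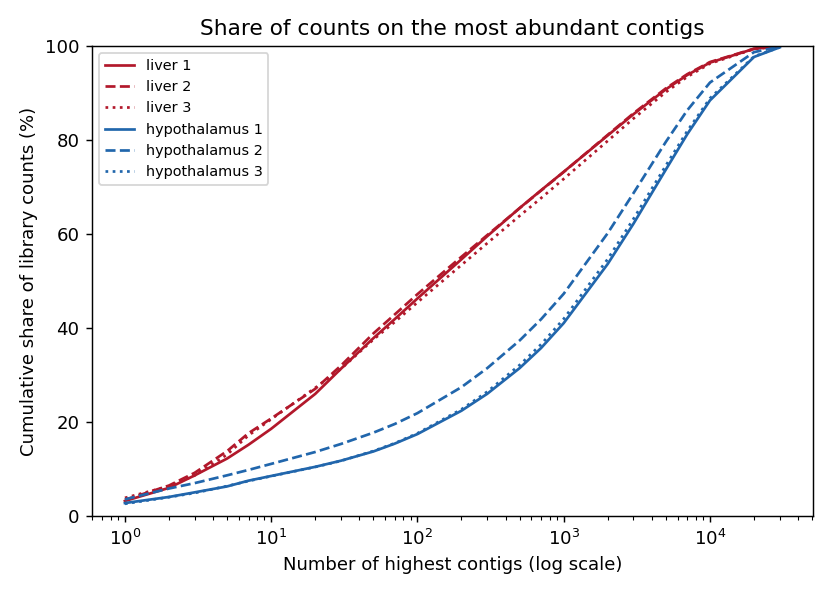
Cumulative share of a library's counts (percent, vertical) held by its highest contigs (number, horizontal log scale), with 1 line per library, liver in red and hypothalamus in blue. At the 100 highest contigs the 3 liver lines stand at 45.5% to 47.2% and the 3 hypothalamus lines at 17.5% to 21.9%.

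Between the tissues, 12868 of 42878 contigs tested differed (30%), of which 4940 (11.5%) were higher in liver and 7928 (18.5%) were higher in hypothalamus, by edgeR's quasi-likelihood test with TMM scaling at a Benjamini-Hochberg adjusted p under 0.05. The split between directions rested on the scaling. With library size alone 17340 contigs passed, 2821 higher in liver and 14519 higher in hypothalamus, whereas with upper-quartile scaling the majority turned, with 6562 higher in liver and 6356 higher in hypothalamus. TMM scaling estimates a common factor from contigs of moderate change, and its factors were 0.679 to 0.752 in liver and 1.25 to 1.54 in hypothalamus. Among 24167 contigs that averaged at least 50 counts in either tissue, the median log2 fold change with library size alone lay 0.99 below that with TMM, while RLE scaling lay 0.14 and upper-quartile scaling 0.41 above it. Under all 4 scalings 9177 contigs kept their direction, 2821 higher in liver and 6356 higher in hypothalamus. These equal the liver number with library size alone and the hypothalamus number with upper-quartile scaling, the lowest of each direction. The split of the 9177 was thus set by those 2 scalings and gives no majority between the tissues. Because the tissues were sampled whole, a difference in the number of cells of a type and a difference in RNA per cell cannot be told apart for any contig.

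**Figure D2:**
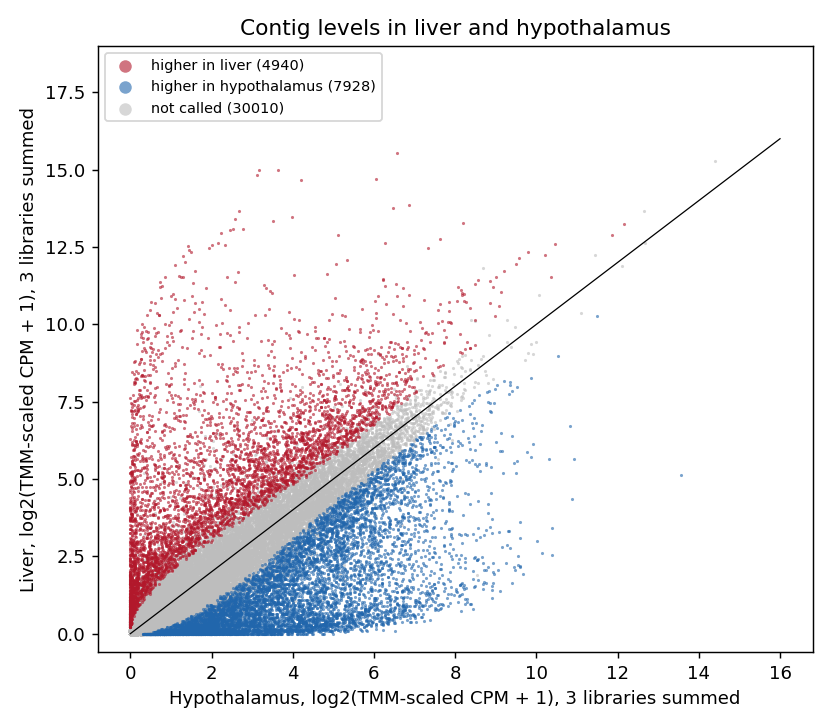
Level of each of the 42878 contigs in liver (vertical) and hypothalamus (horizontal), both as log2(TMM-scaled CPM + 1) over the 3 summed libraries, with the line of equality. The 4940 contigs higher in liver (red) reach the highest levels in their tissue, and the 7928 higher in hypothalamus (blue) lie below the line, many at the low end of the liver scale; with upper-quartile scaling the counts become 6562 and 6356.

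The differences were large in both directions. Among the contigs higher in liver 3576 differed at least 4-fold, 2090 at least 10-fold and 679 at least 100-fold, and among those higher in hypothalamus 6309, 4353 and 1287 did. At 1000-fold or more the order turned, with 199 higher in liver and 85 higher in hypothalamus. With library size alone these became 111 and 128. The other values of this paragraph are given with TMM only, and no majority by size is read from them. The median log2 fold change (liver over hypothalamus) was 2.88 in the contigs higher in liver, -3.62 in those higher in hypothalamus, -0.16 in the 30010 contigs that did not pass and -0.30 over all tested. Folds of contigs at 0 in a tissue are fitted values that depend on a small added count, and they enter these numbers as fitted. Contigs higher in liver averaged a median of 311.5 counts in liver and 79.0 in hypothalamus, and contigs higher in hypothalamus a median of 10 counts in liver and 411.5 in hypothalamus.

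The balance of directions differed between count levels without a steady trend. Below a mean of 10 counts over the 6 libraries, 361 of 11201 contigs were higher in liver and 244 higher in hypothalamus. Among 15365 contigs with a mean of 10 to 100 counts over the 6 libraries, 8.99% were higher in liver and 15.5% higher in hypothalamus, and from 100 to 1000 counts these were 16.6% and 31.3% of 12876. From 1000 to 10000 counts 958 of 3279 were higher in liver and 1229 higher in hypothalamus, a split that turned to 1139 and 1010 with upper-quartile scaling. Of the 157 contigs with a mean of 10000 counts or more, 103 (65.6%) were higher in liver and 34 (21.7%) higher in hypothalamus, with a median log2 fold change of 2.83. Of these 157, liver kept the majority under each scaling. The split ranged from 92 higher in liver and 43 higher in hypothalamus with library size alone to 109 and 31 with upper-quartile scaling. From 100 to 1000 counts the hypothalamus kept the majority under each (1174 and 7044 with library size alone, 2904 and 3297 with upper-quartile scaling). The count levels are means of the same counts that enter the test, and they are the same under each scaling. A contig can reach the highest level through the tissue where it is higher, and liver counts lay on fewer contigs. A liver majority at that level was thus favoured in advance, and agreement over scalings does not remove this. Contigs called higher in liver held 74.0%, 72.5% and 73.5% of the counts of the liver libraries and 12.9%, 12.1% and 11.5% of those of the hypothalamus. Contigs called higher in hypothalamus held 3.46%, 3.34% and 3.66% of liver counts and 43.8%, 48.3% and 48.0% of hypothalamus counts. Contigs that did not pass held 22.5%, 24.1% and 22.9% in liver and 43.3%, 39.6% and 40.4% in hypothalamus. These shares describe the same counts that made the calls and are given without a test. With library size alone the first liver share became 64.3% on average and the hypothalamus share on its own contigs 69.0%.

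By mean counts over the 3 libraries, which are not divided by contig length, FHM_All_PTA_Assem.56.C1 was the highest contig in liver, though in liver library 2 it was second. Its 3 liver libraries held 511927, 508659 and 568559 counts, against 2389, 3422 and 2382 in the hypothalamus libraries. It made up 3.25%, 3.04% and 3.91% of liver counts, against 0.0114%, 0.0151% and 0.0126% of hypothalamus counts. It was 512-fold higher in liver (log2 fold change 8.99 ± 0.40 SE, adjusted p = 5.95e-06 by edgeR's quasi-likelihood test). The contig highest in hypothalamus, FHM_All_PTA_Assem.1931.CB1, which was also the first in liver library 2, was abundant in both tissues, at 418350, 583249 and 322397 counts in liver and 588335, 811130 and 498695 in hypothalamus, or 2.66%, 3.49% and 2.22% of liver counts and 2.81%, 3.59% and 2.65% of hypothalamus counts. In both tissues the second library was the highest and the third the lowest. Its log2 fold change of 0.87 ± 0.33 (SE) did not pass (adjusted p = 0.0821 by edgeR's quasi-likelihood test) and it turned to -0.11 with library size alone, so that no direction can be given. With the replicate number as a block its adjusted p was 0.023, and without the second hypothalamus library 0.0261. The most abundant of the contigs higher in hypothalamus, FHM_All_PTA_Assem.1951.CB1, chosen after its values were seen, had 354, 464 and 320 counts in liver, against 271515, 521069 and 266293 in hypothalamus. It was 353-fold higher in hypothalamus (log2 fold change -8.48 ± 0.48 SE, adjusted p = 1.04e-05).

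The most abundant contigs of each tissue were also counted in every library of the other. Each list of 100 was ranked by counts that also enter the test, so calls towards its own tissue were favoured in advance. Over all contigs tested, 11.5% were higher in liver and 18.5% higher in hypothalamus. Of the 100 most abundant liver contigs, 93 were higher in liver and 7 did not pass. Their hypothalamus counts were a median of 1.3% of their liver counts and at lowest 0.0645%, with 46 of them under 1% and 14 under 0.1%, and no contig had a 0 in any hypothalamus library. Of the 100 most abundant hypothalamus contigs, 67 were higher in hypothalamus, 16 were higher in liver and 17 did not pass. Their liver counts had a median of 4.98% of their hypothalamus counts and a lowest value of 0.0974%, with 36 under 1%, and again none had a 0 in a liver library. The lists shared 19 contigs. At the other end, 1025 contigs averaged at least 1000 counts in both tissues: 510 were higher in liver, 50 higher in hypothalamus, and 465 did not pass, of which 328 lay within 1.5-fold. This last split turned with library size alone, to 239 higher in liver and 282 higher in hypothalamus, and no direction can be given for it. In the lists of 100, library size alone left 86 of the liver contigs higher in liver with 2 higher in hypothalamus, and made 77 of the hypothalamus contigs higher in hypothalamus with 8 higher in liver.

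Few contigs were both well counted in every library of one tissue and absent from the other. With at least 50 counts in each library of a tissue and 0 in all 3 of the other, 27 contigs were found for liver and 167 for hypothalamus, where 30% of contigs tested were called and the hypothalamus libraries were the deeper. The 27 liver contigs had a median mean of 167.3 counts and a highest of 2181, and the 167 hypothalamus contigs 155.7 and 899. In the other libraries of the fish, 16 of the 27 liver contigs were at 0 in all 3 telencephalon libraries, 4 had at least 50 counts in every gut library and 5 were at 0 in all gut libraries. Of the 167 hypothalamus contigs, 132 had at least 50 counts in every telencephalon library, none was at 0 there in all 3, 3 had at least 50 counts in every gut library and 37 were at 0 in all gut libraries. Shares of all contigs tested that met the same gut and telencephalon cuts are not given here. These counts are therefore not read as traits of the contigs found. The numbers were sensitive to single libraries: without the first or the third hypothalamus library 46 liver contigs each qualified, and the hypothalamus number became 304, 302 and 268 without liver library 1, 2 and 3 and 275 without hypothalamus library 2. With up to 5 counts in place of 0 there were 145 liver and 1172 hypothalamus contigs.

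Among contigs with at least 50 counts in each library of the higher tissue, the largest folds towards liver were those of FHM_All_PTA_Assem.23581.C1 and FHM_All_PTA_Assem.565.CB2. The first had 4875, 353 and 1315 counts in liver and 0, 0 and 0 in hypothalamus. Its level was at least 5750-fold higher in liver, taking 3 counts over the 3 hypothalamus libraries as the floor (adjusted p = 0.000962 by edgeR's quasi-likelihood test). The size of this bound rested on liver library 1, without which it was at least 2190-fold, against at least 2390-fold for the other contig. FHM_All_PTA_Assem.565.CB2 was even across livers, with 768, 951 and 867 counts in liver and 0, 0 and 0 in hypothalamus, and its liver level was at least 2270-fold higher (adjusted p = 1.33e-05). The largest folds towards hypothalamus were those of FHM_All_PTA_Assem.16112.C1 and FHM_All_PTA_Assem.10424.C2. FHM_All_PTA_Assem.16112.C1 had 0, 0 and 0 counts in liver and 696, 1212 and 791 in hypothalamus, where it was at least 341-fold higher (adjusted p = 8.5e-05). FHM_All_PTA_Assem.10424.C2 had 0, 0 and 0 counts in liver and 868, 275 and 1158 in hypothalamus, where it was at least 291-fold higher (adjusted p = 0.000471). The floor of 3 counts is worth more CPM in liver than in hypothalamus, so bounds in opposite directions cannot be set against each other.

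Contig names tell from which kind of sequence a contig was built, and some kinds divided differently between the tissues. Over all contigs tested liver took 38.4% of the calls, and assembly contigs and isoforms lay close to that share. The kinds also differed in level, which was not matched. Their median mean counts were 137 for assembly contigs, 15.7 for expressed sequence tags, 26.5 for singlets and 32.2 for isoforms. Of 20832 contigs of the transcript assembly, 2932 were higher in liver and 4662 higher in hypothalamus, so that liver took 38.6% of their calls. Expressed sequence tags (single-pass cDNA reads held in public databases) leaned to the hypothalamus, with 624 of 9806 higher in liver and 1704 higher in hypothalamus (26.8% of calls to liver). Contigs named as singlets were almost even, with 901 of 7563 higher in liver and 851 higher in hypothalamus (51.4%). Full-length isoforms from single-molecule PacBio sequencing gave 427 of 4456 higher in liver and 700 higher in hypothalamus (37.9%). With library size alone these liver shares fell to 16.4%, 9.80%, 24.3% and 15.2%, beside 16.3% over all contigs, which turned singlets to a hypothalamus majority. The remaining 221 contigs, of other name series, leaned to liver under both scalings, with 56 higher in liver and 11 higher in hypothalamus by TMM (83.6%) and 39 and 31 by library size alone (55.7%). Measured by counts, expressed sequence tags took 4.43% ± 0.186 of liver libraries and 8.68% ± 0.0983 of hypothalamus libraries (SD, n = 3 each). Singlets took 7.03% ± 1.25 of liver and 3.26% ± 0.931 of hypothalamus. The tissues did not overlap in either (exact two-sided permutation p = 0.1 each, the smallest possible without pairing).

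PacBio isoforms are the only kind whose names give a length, and within that kind liver counts fell on shorter isoforms. Isoforms held 4.35% ± 0.436 of liver counts and 6.27% ± 0.172 of hypothalamus counts (SD, n = 3 each). The lengths below describe that part of the counts only. The mean isoform length weighted by counts was 1378, 1306 and 1330 nucleotides in the liver libraries (1338 ± 36.9, SD, n = 3). It was 1662, 1511 and 1682 in the hypothalamus libraries (1618 ± 93.6, SD, n = 3), without overlap (exact two-sided permutation p = 0.1, the smallest possible without pairing). Since longer isoforms yield more fragments, the mean was also weighted by counts per nucleotide, which gave 1064 ± 20.7 nucleotides in liver and 1230 ± 58.5 in hypothalamus. Isoforms under 1000 nucleotides held 43.2%, 49.8% and 45.6% of isoform counts in liver and 28.1%, 36.7% and 29.8% in hypothalamus. The second library had the highest share in each tissue. The most abundant isoform, of 780 nucleotides, had 95233, 199045 and 136146 counts in liver and 132613, 260283 and 168004 in hypothalamus. It did not pass between the tissues (log2 fold change 0.99, adjusted p = 0.0905 by edgeR's quasi-likelihood test), and its log2 fold change was 0.03 with library size alone. It held 26.1% of the isoform counts of liver library 2. Without it the weighted length was 1490, 1491 and 1469 nucleotides in liver (1483 ± 12.6) and 1764, 1677 and 1826 in hypothalamus (1756 ± 74.7), and liver library 2 was no longer the shortest of its group. The median lengths of the isoforms called did not follow the same order: isoforms higher in liver had a median of 1352 nucleotides, those higher in hypothalamus 1247 and those that did not pass 1241. Their upper quartiles did, at 1792 nucleotides for liver and 2035 for hypothalamus, with 1782 for those that did not pass. Of the 82 isoforms of 4000 nucleotides or more, 9 were higher in liver and 22 higher in hypothalamus, which is 26.8% for hypothalamus beside 15.7% over all isoforms, and for liver close to the 9.58% over all isoforms.

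Contigs of one assembly cluster share sequence, and a read kept as unique to one of them may be lost or reassigned where copies are near identical, so their separate counts are uncertain. Of 15299 clusters tested, 3676 held at least 2 tested contigs, and 744 of these had at least 2 contigs called between the tissues. In 315 of the 744 clusters all called contigs were higher in liver, in 362 all were higher in hypothalamus, and in 67 (9.01%) contigs of both directions occurred. The contigs of 27 of the 67 differed at least 4-fold in both directions, and 20 clusters held calls of both directions, of any fold, under all 4 scalings. With library size alone 72 were split. The 3 examples that follow, chosen after their values were seen, are among the 20.

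In cluster 2343, contig FHM_All_PTA_Assem.2343.C1 had 9042, 8921 and 7726 counts in liver and 6388, 6902 and 5871 in hypothalamus, and was higher in liver (log2 fold change 1.82 ± 0.23 SE, adjusted p = 0.000514 by edgeR's quasi-likelihood test). Its partner FHM_All_PTA_Assem.2343.C2 had 19, 28 and 38 counts in liver and 3722, 3714 and 3188 in hypothalamus (log2 fold change -5.56 ± 0.35 SE, adjusted p = 1.5e-05). The share of the pair's counts on C1 was 99.8%, 99.7% and 99.5% in liver and 63.2%, 65.0% and 64.8% in hypothalamus. Nearly all liver counts of the pair thus lay on C1, while the hypothalamus counts lay on both. In cluster 241 the contigs changed places, with 88.8%, 94.3% and 90.8% of the pair's counts on FHM_All_PTA_Assem.241.C3 in liver and 22.4%, 19.4% and 17.5% in hypothalamus. In cluster 2248, of 4 tested contigs, 2 changed places in the same way. FHM_All_PTA_Assem.2248.C2 had 1880, 2969 and 2047 counts in liver and 456, 629 and 810 in hypothalamus, and FHM_All_PTA_Assem.2248.C4 had 167, 276 and 232 in liver and 2423, 4608 and 3409 in hypothalamus. Its other contigs did not pass, and the larger of them, FHM_All_PTA_Assem.2248.C1, had 332, 266 and 333 counts in liver and 1048, 3041 and 1256 in hypothalamus (adjusted p = 0.0855 by edgeR's quasi-likelihood test). Shares of a pair are taken within a library and do not depend on its scaling. Whether the members of a cluster are isoforms, alleles or gene copies was not tested.

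**Figure D3:**
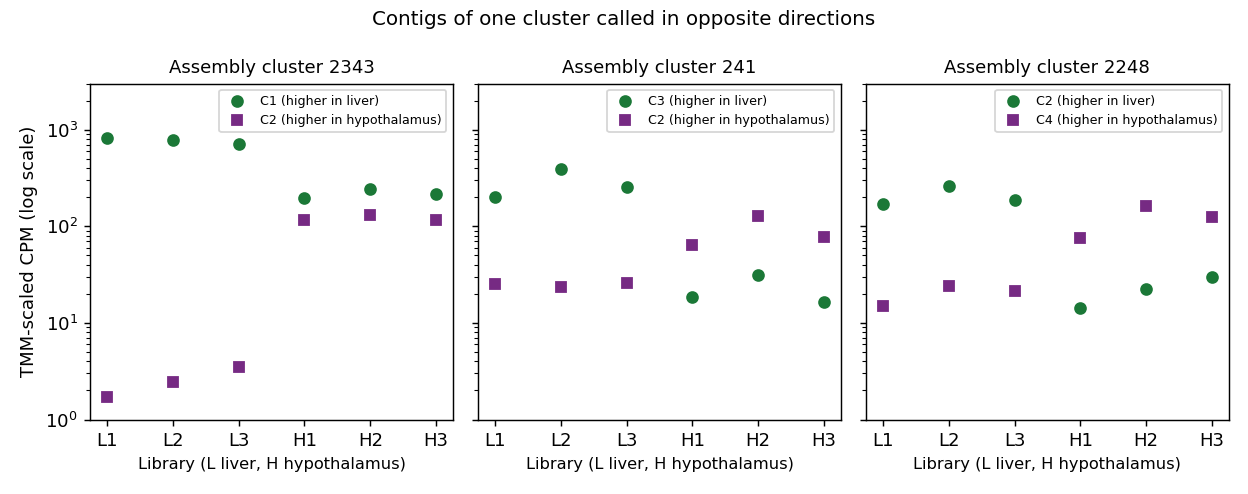
TMM-scaled CPM (vertical log scale) of 2 contigs called in opposite directions from each of 3 assembly clusters in the 3 liver (L) and 3 hypothalamus (H) libraries, with circles for the contig higher in liver and squares for the contig higher in hypothalamus. In clusters 241 and 2248 circles lie above squares in every liver library and below them in every hypothalamus library, and in cluster 2343 the square falls far below the circle in liver only.

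Gut and telencephalon, a digestive organ and another forebrain region of the same fish, gave libraries that did not enter the fit behind the calls above. They did enter the filter that chose the contigs to test. Through it, 418 contigs with no count in liver or hypothalamus were tested and are part of the shares of all contigs below. Of the 4940 contigs higher in liver, 2886 (58.4%, where 18.9% of all contigs tested were higher in gut) were also higher in gut than in telencephalon, 216 (4.37%) were higher in telencephalon (22.6% of all) and 1838 passed in neither direction. Of the 7928 contigs higher in hypothalamus, 5994 (75.6%) were higher in telencephalon than in gut, 363 (4.58%) were higher in gut and 1571 passed in neither direction. The median log2 fold change of gut over telencephalon was 1.59 in the contigs higher in liver and -2.57 in those higher in hypothalamus. Read the other way, 35.6% of the contigs higher in gut were higher in liver, and 61.8% of those higher in telencephalon were higher in hypothalamus. The libraries differ but the fish are the same, so the comparisons are not independent in the animals.

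**Figure D4:**
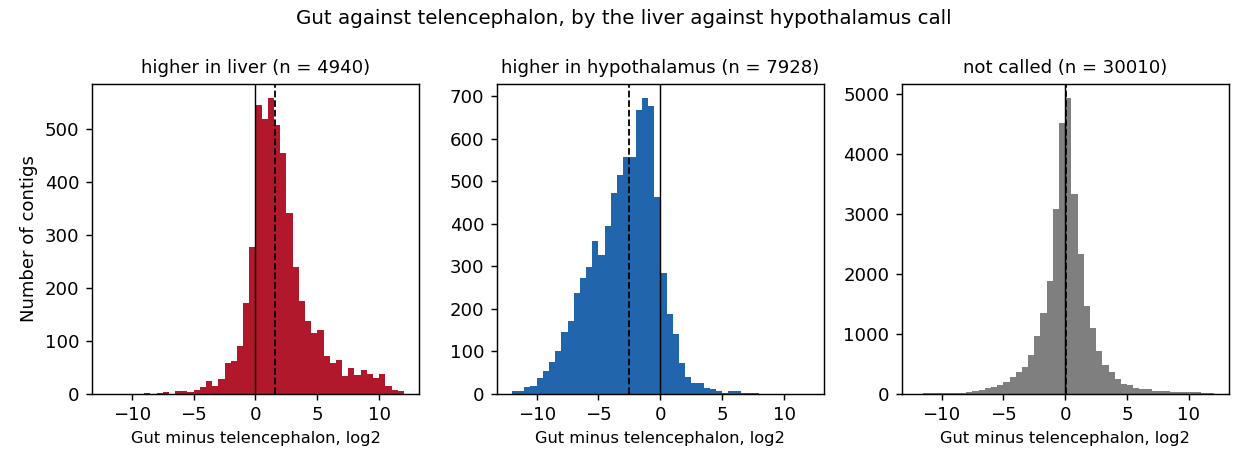
Number of contigs (vertical) by log2 fold change of gut over telencephalon (horizontal), for contigs higher in liver (left, n = 4940), higher in hypothalamus (middle, n = 7928) and not called (right, n = 30010). Solid lines mark 0 and dashed lines the medians, which are 1.59 for contigs higher in liver and -2.57 for those higher in hypothalamus.

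The size of the liver against hypothalamus difference was then compared with that of gut against telencephalon in a single fit of the 12 libraries. That fit held no term for the replicate number, so libraries of the same number were treated as independent. With the number as a block 7191 contigs passed, and with library size alone 7665, beside the result that follows. The differences themselves differed for 5891 contigs (13.7%), 2351 being more positive for liver over hypothalamus and 3540 more positive for gut over telencephalon. This split is given with TMM scaling only, so no majority is read from it. Of the 4940 contigs higher in liver 1732 passed, and of the 7928 higher in hypothalamus 1831. Those contigs were called on the liver against hypothalamus difference that enters this test, so nothing is read from the direction in which they passed. Singlet_10822_R, chosen after its values were seen, had 1063, 916 and 460 counts in liver and 189, 58 and 165 in hypothalamus, but 10, 0 and 7 in gut and 124, 151 and 125 in telencephalon. Its log2 fold change was 3.97 for liver over hypothalamus and -3.95 for gut over telencephalon (adjusted p of the difference = 0.000175 by edgeR's quasi-likelihood test), so that it was high in liver, intermediate in both brain regions and nearly absent from gut. An expressed sequence tag, also chosen after its values were seen, had both signs reversed, with log2 fold changes of -4.31 and 5.62. It had 1, 0 and 3 counts in liver and 52, 111 and 55 in hypothalamus. In gut it had 383, 356 and 342 and in telencephalon 8, 13 and 11 (adjusted p of the difference = 2.27e-05 by edgeR's quasi-likelihood test). Its counts were lower in telencephalon than in hypothalamus, so unlike the singlet it was not at a like level in both brain regions.

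Some contigs differed between replicate numbers, which were taken to stand for the fish. In a model of tissue and replicate number over the 6 libraries, 528 contigs (1.23%) differed between replicate numbers, and 71 of these (13.4%) also differed between liver and hypothalamus, where 30% of all contigs did. That tissue test holds the spread between fish in its error, and with the replicate number as a block 228 of the 528 (43.2%) differed between the tissues, where 31% of all contigs did. The list was chosen by an effect of the number common to both tissues, and by way of description 211 of its contigs were highest in number 1 of both tissues, 145 in number 2 and 92 in number 3. Gut and telencephalon, tested alone in the same way, gave 1237 contigs (2.88%), and 436 were in both lists, which is 82.6% of the list from liver and hypothalamus and 35.2% of that from gut and telencephalon. Of the 448 contigs with 1 number highest in both liver and hypothalamus, 355 (79.2%) were highest in that number in gut and telencephalon too. The same share over all contigs tested is not given here. The number of contigs moved with single libraries: it was 339, 891 and 886 without liver library 1, 2 and 3, and 985 and 1534 without hypothalamus library 1 and 3. It was 105 among contigs with at least 10 counts in 3 libraries, a filter under which 379 of the 528 were tested.

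The contigs named here were chosen after their values were seen. FHM_All_PTA_Assem.622.CB2 had 3159, 46 and 26 counts in liver and 3398, 34 and 18 in hypothalamus, so that number 1 was far above the others in both tissues (adjusted p between numbers = 0.000305 by edgeR's quasi-likelihood test). Between the tissues it was 2.47-fold higher in liver after TMM scaling, with an adjusted p of 0.645, and of 0.00221 with the replicate number as a block. The size of this difference rested on the scaling, with a log2 fold change of 1.45 with TMM and 0.32 with library size alone. FHM_All_PTA_Assem.777.C1 had the opposite pattern, with 1, 1537 and 2563 counts in liver and 1, 1742 and 2796 in hypothalamus, and it too passed between the tissues only with the block (adjusted p = 0.699 without it and 0.0187 with it, by edgeR's quasi-likelihood test). Its log2 fold change was 1.17 with TMM and 0.25 with library size alone. The block was fitted with TMM only, so whether these calls hold under library size alone was not tested. In cluster 2042, contigs of the same cluster were high in different replicate numbers. FHM_All_PTA_Assem.2042.C1 had 2377, 3 and 83 counts in liver and 927, 0 and 21 in hypothalamus, whereas FHM_All_PTA_Assem.2042.C2 had 1, 1829 and 0 in liver and 1, 658 and 0 in hypothalamus. Both passed between the tissues with the block (adjusted p = 0.000319 and 0.00615) and not without it (0.371 and 0.473). Of 32 clusters with at least 2 such contigs, 24 held contigs highest in different numbers. The share to be found with unrelated contigs is not given here, so nothing is read from this count.

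At least 1 call between the tissues rested on a single fish. FHM_All_PTA_Assem.7614.C2 had 1, 1715 and 4 counts in liver and 0, 8 and 0 in hypothalamus. It was called higher in liver (adjusted p = 0.0359 by edgeR's quasi-likelihood test) and did not pass without liver library 2 (adjusted p = 0.679). A set of 45 contigs higher in liver reached 1000 counts in a liver library and spanned at least 20-fold among the livers. The set was limited to contigs whose hypothalamus level was at most 5% of the liver level. In 22 of the 45 the highest hypothalamus library had the number of the highest liver library. The same share over all contigs is not given here, so nothing is read from it.

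**Figure D5:**
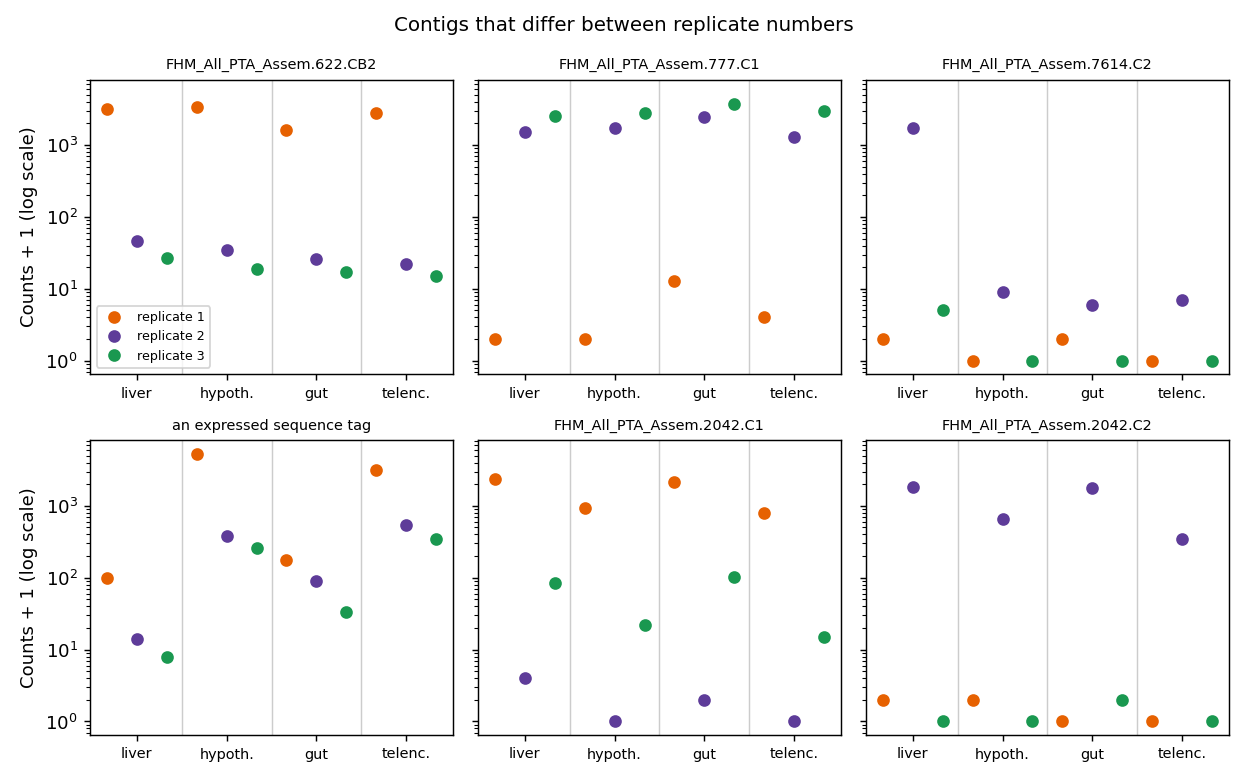
Counts plus 1 (vertical log scale) of 6 contigs in the 3 libraries of liver, hypothalamus, gut and telencephalon, coloured by replicate number. FHM_All_PTA_Assem.622.CB2 is high in number 1 of all 4 tissues, FHM_All_PTA_Assem.777.C1 is low in number 1 of all 4, the contigs of cluster 2042 are high in different numbers, FHM_All_PTA_Assem.7614.C2 is high in 1 liver library alone, and an expressed sequence tag called higher in hypothalamus is highest in number 1 of all 4 tissues.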

How the data were processed

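RNA-seq libraries of 4 tissues from adult male fathead minnows, 3 per tissue, were grouped by the tissue and replicate number in the labels. Per the methods, the authors made directional poly(A) libraries, trimmed reads (cutadapt), mapped with bowtie 2, discarded likely PCR duplicates and reads without a unique position (SAMtools and in-house scripts; cutadapt and SAMtools also stand in the submitters' processing notes) and counted the rest. Tool versions and the use of strand in counting are not given in the sources read here. The deposited lists hold raw whole-number counts by contig, and contigs absent from a list were set to 0. Both fathead minnow consensus and zebrafish sequences are named as the reference for mapping; the contigs bear fathead minnow names.

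Of 46309 contigs, 42878 were tested, those detected (1 count) in 2 or more replicates of any of the 4 tissues, and the other 3431 held 0.0149% of the counts. Liver and hypothalamus were fitted alone with TMM scaling and the quasi-likelihood test of edgeR 4.0.16 in R 4.3.3, with Benjamini-Hochberg adjustment at 0.05, and the code was tested on simulated data. The difference of differences was a contrast in a fit of all 12 libraries, and replicate numbers were tested with tissue as a covariate. Values per library were compared by exact permutation tests of 3 libraries against 3, which did not use the pairing by number. Counts are not divided by contig length, so ranks of contigs by abundance are ranks by counts and also depend on length. Libraries were 14546298 to 22589095 counts deep, and floors of 3 counts cover counting error only. Replicates differed by more than sampling noise (chi-square per degree of freedom 39.7 to 80.4).

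The numbers were taken to pair the libraries by fish, which the labels do not state. The methods name 3 individual males, and deviations from the tissue means correlated at 0.389, 0.194 and 0.179 between liver and hypothalamus of the same number (42878 contigs). They correlated at -0.241 to 0.04 otherwise, which is not separate evidence, because deviations from a mean cancel out within a tissue. Whether the numbers also follow something other than the fish was not tested. Alternatives were other scalings, filters and tests, DESeq2 1.42.0, a block for the number, a 2-fold threshold and leaving out each library; the block within the contigs that differed between numbers, agreement over all scalings and single libraries left out of the other comparisons were added after seeing the data. Of contigs, at most 2 by largest fold per direction and the most abundant of each tissue were named; the others are marked as chosen after their values were seen. The comparisons and lists were chosen with earlier results of these data known. Lists of marker genes could not be looked up without gene names.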

Additional observations from a re-analysis of the deposited data

Results flagged for a closer look

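The differences between liver and hypothalamus and between gut and telencephalon differed from each other for 5891 contigs by a test of the difference itself (quasi-likelihood test of edgeR at a Benjamini-Hochberg adjusted p under 0.05). Leaving out any 1 of the 12 libraries gave 4310 to 6071 contigs. The fit held no term for the replicate number. With that number as a block 7191 contigs passed, and with library size alone 7665.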

How the results depend on the processing

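The 12868 contigs that differed between the tissues became 13309 with the replicate number as a block, which raised the contigs called both between numbers and between tissues to 228, against 71 without it, 14295 with the exact test of edgeR, 14507 with DESeq2 (4867 contigs without an adjusted p), 16239 with all 12 libraries in 1 fit and 9143 against a 2-fold threshold. Leaving out 1 library gave 10127 to 12307 contigs. With library size alone 2821 were higher in liver and 14519 in hypothalamus, and 2821 kept a liver direction under all 4 scalings. The log2 fold change of FHM_All_PTA_Assem.1931.CB1 turned to -0.11 with library size alone. The share of liver counts on contigs higher in liver was 64.3% with library size alone, and that of hypothalamus counts on contigs higher in hypothalamus 69.0% with it and 43.8% with RLE scaling. Contigs counted in 1 tissue and at 0 in the other numbered 46 for liver and 314 for hypothalamus at 20 counts, 13 and 78 at 100 counts, and 145 and 1172 with up to 5 counts in place of 0, and leaving out 1 library gave 31 to 46 and 177 to 304. Contigs that differed between replicate numbers were 105 under the filter of 10 counts in 3 libraries, 1237 in gut and telencephalon, and 339 to 1534 without 1 library. The causes of these changes were not tested. Of the other values under alternatives, taken with those of FHM_All_PTA_Assem.1931.CB1, 152 were unchanged in direction and call or within their spread, 13 moved, 5 passed the threshold where the reported one did not and 1 reversed. The 5 and the reversal, which is the -0.11 given above, all belong to FHM_All_PTA_Assem.1931.CB1.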
